A study of Mus musculus with 6 samples.

Results

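The 10 genes described here encode inhibitors of cyclin-dependent kinases (CDKs) and related antiproliferative proteins. They were taken by symbol from the deposited table of 22272 gene symbols: Cdkn1a, Cdkn1b and Cdkn1c of the Cip/Kip family, Cdkn2a, Cdkn2b, Cdkn2c and Cdkn2d of the INK4 family, and Btg1, Btg2 and Btg3. All 10 have a row in the table. RNA was sequenced from C2C12, an established mouse myoblast line, in the undifferentiated state at day 0. The control group was 3 samples labelled wild type that carried green fluorescent protein (GFP), and the other group was 3 samples that overexpressed ChREBP-beta, the short active isoform of the glucose-responsive transcription factor encoded by Mlxipl. The promoter of the transgene, how it was introduced, and whether the cells were a clone or a pool: none of these is stated in the labels. Separate cultures are not stated either, and p-values therefore reflect only the spread among these samples, possibly a technical one.

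A cell divides when cyclins switch on their partner kinases, and the Cip/Kip and INK4 proteins hold those kinases back. Cip/Kip proteins bind complexes of cyclins D, E and A with their kinases, whereas INK4 proteins bind the monomeric kinases Cdk4 and Cdk6 and keep the D cyclins away from them. The Btg proteins, with their relatives Tob1 and Tob2, bind the deadenylase subunits of the CCR4-NOT complex, which shortens the poly(A) tails of messenger RNAs. In muscle precursors, withdrawal from the cell cycle goes before fusion into fibres, and the Cip/Kip inhibitors p21 and p57, the products of Cdkn1a and Cdkn1c, are known for their part in it.

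Of the 10 genes, 7 differed between the groups, 2 higher and 5 lower with ChREBP-beta, and most of these differences were small. A gene was called at a Benjamini-Hochberg adjusted p under 0.05 in edgeR's quasi-likelihood test, which called 58.7% of all 12166 genes tested, 29.5% as higher and 29.3% as lower. Btg2 was 2.07-fold lower and Cdkn1c, read at no more than 40 counts in any library, was 3.02-fold lower. Cdkn1a and Btg1 were the members that rose, 1.14-fold and 1.10-fold. Cdkn1b, Cdkn2d and Btg3 fell by 1.17-fold, 1.29-fold and 1.16-fold. Cdkn2c was not called, and Cdkn2a and Cdkn2b had too few counts to be tested.

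Within both the Cip/Kip and the Btg family 1 member rose while the others fell, and the stretches upstream of such pairs are printed here. RefSeq windows of the 250 bases before a transcription start were found for 9 of the 10 members (GRCm38.p6), all but Cdkn1c. These came to 13 windows because some genes have more than 1 start. Each sequence reads 5′ to 3′ on the gene's strand and ends next to the start. Capitals mark matches, on either strand, to the GC box GGGCGG, to CCAAT, to TATAAA or to the p53 half-site, and neighbouring matches can overlap.
Cdkn1a, first start, chr17:29090729-29090978, plus strand: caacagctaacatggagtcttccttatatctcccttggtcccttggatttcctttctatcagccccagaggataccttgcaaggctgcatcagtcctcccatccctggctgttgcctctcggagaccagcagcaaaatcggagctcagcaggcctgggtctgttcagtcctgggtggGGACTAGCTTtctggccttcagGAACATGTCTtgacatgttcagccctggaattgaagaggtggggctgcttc
Cdkn1a, second start, chr17:29093519-29093768, plus strand: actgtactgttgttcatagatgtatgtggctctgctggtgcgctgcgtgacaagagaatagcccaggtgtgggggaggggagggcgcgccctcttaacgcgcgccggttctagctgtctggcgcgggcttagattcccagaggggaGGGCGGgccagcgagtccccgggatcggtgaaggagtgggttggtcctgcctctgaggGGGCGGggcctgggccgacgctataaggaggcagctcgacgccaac
Cdkn1b, chr6:134920151-134920400, plus strand: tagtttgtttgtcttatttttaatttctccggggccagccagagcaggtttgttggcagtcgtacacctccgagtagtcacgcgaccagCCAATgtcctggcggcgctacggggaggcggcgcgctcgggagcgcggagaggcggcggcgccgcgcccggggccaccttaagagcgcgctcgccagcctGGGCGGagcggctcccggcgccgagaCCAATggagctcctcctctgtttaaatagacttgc
Btg1, chr10:96616751-96617000, plus strand: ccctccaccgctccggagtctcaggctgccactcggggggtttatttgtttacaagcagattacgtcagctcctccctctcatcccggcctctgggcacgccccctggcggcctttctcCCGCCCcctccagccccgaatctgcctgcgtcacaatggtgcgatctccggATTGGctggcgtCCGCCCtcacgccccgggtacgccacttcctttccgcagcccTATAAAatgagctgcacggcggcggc
Btg2, chr1:134079156-134079405, minus strand: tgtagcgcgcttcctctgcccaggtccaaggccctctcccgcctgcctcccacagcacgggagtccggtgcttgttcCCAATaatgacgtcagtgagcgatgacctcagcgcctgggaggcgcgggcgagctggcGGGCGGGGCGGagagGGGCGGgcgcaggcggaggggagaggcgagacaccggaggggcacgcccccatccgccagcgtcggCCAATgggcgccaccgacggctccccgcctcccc

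The window of the first Cdkn1a start held 2 p53 half-sites, the nearer one 51 to 42 bases before the start, and neither GC box nor CCAAT. Btg2, also a textbook p53 target, had no half-site in its window but 3 GC boxes and 2 CCAAT matches. Btg1 had a TATAAA match 26 to 21 bases before its start, the only member window with one. Over the 13 member windows, 8 held a GC box, against 32.7% of all 32851 RefSeq windows of the same length, 6 held CCAAT, against 33.8%, and 2 held a p53 half-site, against 7.13%. Neither the E-box CACGTG, which Myc and Mlx partners bind, nor the longer carbohydrate response element had a match in any of the 13. These occur in 6.02% and 0.0974% of all windows. Except for a Cdkn2c window at 42.8%, all member windows held more G and C than the median of all windows, 52.4%. The shares were not adjusted for this. Matches describe the letters in these windows only.

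The deposited counts came to between 17600238 and 19163834 per library, so that 1 CPM (counts scaled by library size, here with TMM factors) stands for 17.3 to 19.1 counts. Mlxipl ran from 0.501 to 0.719 CPM over the 3 control libraries and from 215 to 222 CPM over the 3 that overexpressed the factor, as the labels say. All 5 myoblast markers tested were lower with ChREBP-beta. Their summed level was 276 to 301 CPM with GFP and 84.4 to 91.8 CPM with ChREBP-beta, and the satellite cell marker Pax7 had 0, 0 and 6 counts in the ChREBP-beta libraries. Differentiating muscle markers summed to 5.48 to 7.30 and 0.638 to 0.983 CPM, with 3 of 6 tested, all 3 lower, and Myog without a count in the ChREBP-beta group. In these bulk samples fewer cells of a type and less RNA per cell cannot be told apart. Fibro-adipogenic markers, which myoblast lines partly share, split into 4 higher and 2 lower and summed to 827 to 861 and 875 to 900 CPM. Hepatocyte markers summed to between 0.0553 and 23.5 CPM in the GFP libraries, the highest being GFP replicate 3. With ChREBP-beta the sum was 14.7 to 20.0 CPM, and none of the 5 was called. The GFP libraries were unlike each other: Alb had 2, 0 and 292 counts there, against 273, 208 and 169 in the ChREBP-beta libraries. The source of this RNA was not tested. Macrophage markers summed to 5.34 to 17.4 and 15.4 to 17.6 CPM, with no call. Endothelial markers summed to 0.732 to 4.96 and 2.78 to 6.80 CPM, also with no call. Adipocyte markers summed to at most 1.11 and 4.19 CPM, with Lep at 0. The only adipocyte marker tested, the fatty acid binding protein Fabp4, was 6.69-fold higher, at 20 counts in the whole control group against 135 in the other (edgeR adjusted p = 2.45e-06). The part of these differences in the members' values was not tested.

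Of the 8 members with enough counts, 7 (87.5%) were called, against 58.7% of all genes tested. Only Btg2 and Cdkn1c of the 7 changed by 1.5-fold or more, and both by at least 2-fold, against 19.8% and 11.5% of all genes tested (7.42% called lower by at least 2-fold). For 7 of the 8 the 2 groups of libraries did not overlap, against 63.2% of all genes tested. The median absolute log2 fold change was 0.22 over the 8 members and 0.23 over all genes tested, and the median signed value was -0.22 and -0.0040.

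**Figure D1:**
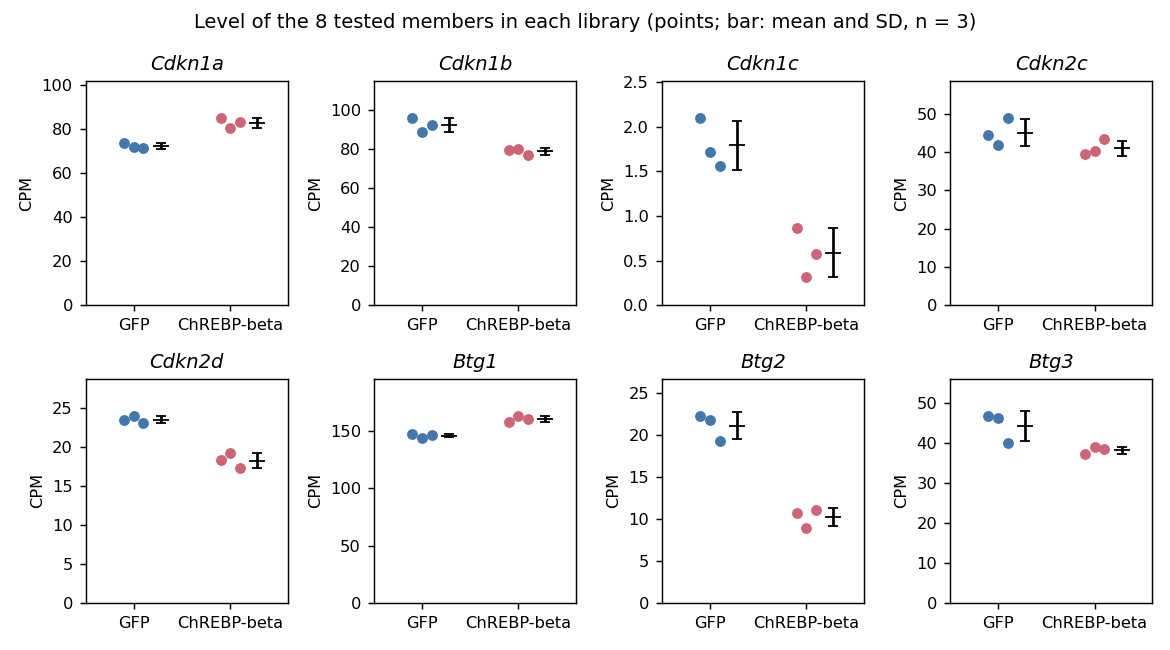
CPM (TMM-scaled, linear axes from 0) of the 8 tested members in each of the 3 GFP and 3 ChREBP-beta libraries (points), with mean and SD beside them. Cdkn1a and Btg1 lie higher in every ChREBP-beta library, Cdkn2c overlaps between the groups, and the other 5 lie lower in every ChREBP-beta library.

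**Figure D2:**
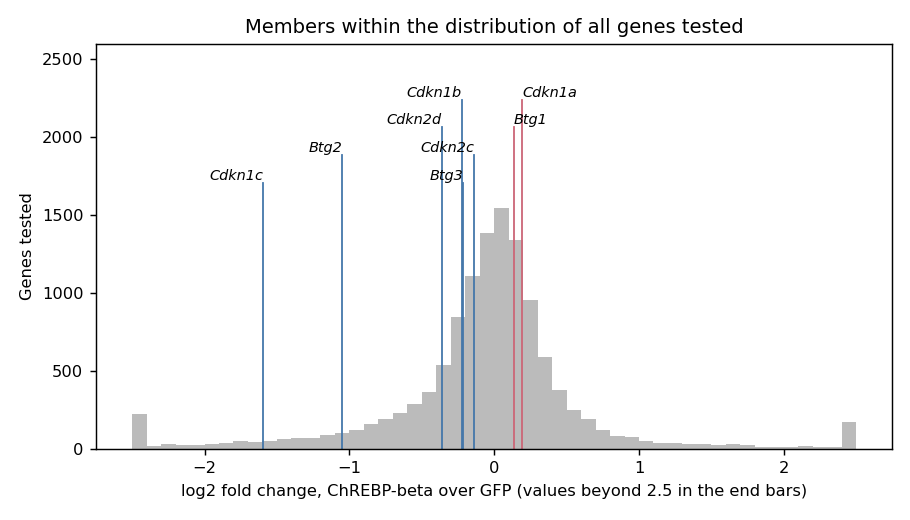
Histogram of log2 fold changes (ChREBP-beta over GFP) of all 12166 genes tested, in bins of 0.1 on the x axis and number of genes on the y axis, with values beyond 2.5 gathered in the end bars. Vertical lines mark the 8 tested members (red above 0, blue below 0), of which Cdkn1c at -1.60 and Btg2 at -1.05 lie outside the central peak.

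Cdkn1a (ENSMUSG00000023067.14; chromosome 17, 29090976 to 29100727, plus strand, GRCm38) encodes p21, the inhibitor induced by p53 and by muscle differentiation. Its level was 73.6, 71.7 and 71.3 CPM in the GFP libraries and 84.7, 80.2 and 83.1 CPM in the ChREBP-beta libraries. Every ChREBP-beta library was above every GFP library. The log2 fold change was 0.19 (SE 0.042, edgeR adjusted p = 3.09e-04). All 6 libraries held fractional counts at this gene, and 273 of its exon bases lie under an unnamed transcript of the opposite strand, whose reads were not analysed here.

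Cdkn1b (ENSMUSG00000003031.14; chromosome 6, 134920401 to 134925513, plus strand) encodes p27, which holds cells in quiescence and is set mainly through protein breakdown. Its level was 95.8, 88.8 and 92.3 CPM with GFP and 79.7, 80.2 and 77.0 CPM with ChREBP-beta. The groups did not overlap, in the opposite direction to Cdkn1a. Its log2 fold change was -0.23 (SE 0.041, edgeR adjusted p = 5.28e-05).

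Cdkn1c (ENSMUSG00000037664.13; chromosome 7, 143458339 to 143461050, minus strand) encodes p57, an inhibitor expressed from the maternal allele and linked to cell cycle exit in developing muscle. The GFP libraries held 40, 31 and 28 counts, or 2.09, 1.71 and 1.56 CPM, and the ChREBP-beta libraries 16, 6 and 10 counts, or 0.870, 0.319 and 0.578 CPM. All 3 ChREBP-beta libraries were lower than all GFP libraries, with the widest relative spread of any tested member (coefficient of variation 15.3% with GFP and 46.8% with ChREBP-beta). Its log2 fold change came to -1.60 (SE 0.386, edgeR adjusted p = 0.00102). The span of an annotated antisense gene covers 882 of the exon bases of Cdkn1c. Whether the exons of that gene meet these bases was not examined, and the use of strand is not given. Where they do meet, its reads cannot be told apart from those of Cdkn1c.

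Cdkn1c lies in an imprinted region, and most of its listed neighbours were not called or hardly read. Of the 7 listed neighbours with a row, 4 were tested: Nap1l4, Tssc4 and Cd81 were not called (Nap1l4 was called higher without GFP replicate 3 or without ChREBP-beta replicate 1), and Igf2, a growth factor expressed from the paternal allele, was lower. Igf2 had 51 counts in the GFP group as a whole and 6 in the other (log2 fold change -2.99, SE 0.623, edgeR adjusted p = 2.26e-04). Phlda2, Slc22a18 and Kcnq1 were too low to be tested, with 2, 29 and 3 counts over the GFP libraries and 0, 8 and 3 over the ChREBP-beta libraries. H19 and Kcnq1ot1, also listed, had no row under these symbols.

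Cdkn1a took a larger share of the Cip/Kip level in every ChREBP-beta library, while the summed level of the family overlapped between the groups. Per kilobase of exon (RPKM, from TMM-scaled counts and merged GENCODE M21 exons), the 3 genes summed to 41.5 ± 1.17 with GFP and 40.9 ± 0.772 with ChREBP-beta (SD, n = 3), with overlapping libraries. Cdkn1a made up 48.4% to 49.8% of that sum in the GFP libraries and 55.9% to 57.7% in the ChREBP-beta libraries. Cdkn1b made up 48.1% to 49.3% and 41.7% to 43.7%. The log2 ratio of Cdkn1a to Cdkn1b counts within a library, which does not depend on how libraries are scaled, was -0.35 ± 0.040 with GFP and 0.07 ± 0.059 with ChREBP-beta (SD, n = 3; two-sided exact permutation p = 0.1, adjusted p = 0.125 over 5 ratios). A p of 0.1 is the smallest that 3 against 3 samples can give, so none of the 5 ratios could pass 0.05. The ratio of Cdkn1c to Cdkn1b also separated the groups, at -5.70 ± 0.185 and -7.18 ± 0.736 on the log2 scale (SD, n = 3; exact permutation p = 0.1).

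**Figure D3:**
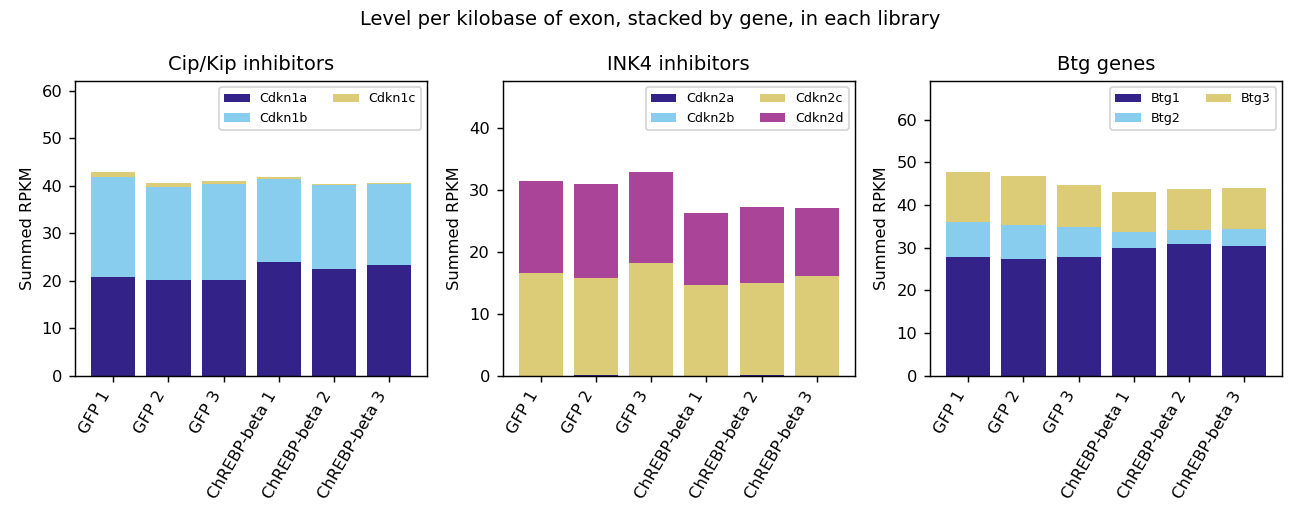
Summed RPKM (TMM-scaled CPM per kilobase of merged exons, y axis from 0) of the Cip/Kip, INK4 and Btg members in each of the 6 libraries (x axis), stacked by gene. The Cip/Kip stacks are of like height with a larger Cdkn1a part in the ChREBP-beta libraries, the INK4 stacks reach 31.0 to 32.9 with GFP and 26.3 to 27.2 with ChREBP-beta, and the Btg2 layer is thinner with ChREBP-beta.

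Among INK4 genes only the pair Cdkn2c and Cdkn2d was read at a level that could be tested. Cdkn2c (ENSMUSG00000028551.14; chromosome 4, 109660876 to 109667189, minus strand) encodes p18. It stood at 44.5, 41.9 and 48.8 CPM with GFP and at 39.5, 40.2 and 43.3 CPM with ChREBP-beta. These ranges overlap, and the log2 fold change of -0.14 (SE 0.062) had an edgeR adjusted p of 0.0615. It was called lower without GFP replicate 2 (edgeR adjusted p = 0.0267) or without ChREBP-beta replicate 3 (0.0380), and also with upper-quartile scaling, with library size alone or among genes of at least 5 CPM. Without GFP replicate 3 the log2 fold change was only -0.07 (edgeR adjusted p = 0.375), and without ChREBP-beta replicate 1 it was -0.10 (0.221).

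Cdkn2d (ENSMUSG00000096472.2; chromosome 9, 21288410 to 21291407, minus strand), which encodes p19INK4d, was read at 23.4, 24.0 and 23.1 CPM with GFP and at 18.3, 19.2 and 17.3 CPM with ChREBP-beta. It was lower in every ChREBP-beta library, with a log2 fold change of -0.36 (SE 0.077, edgeR adjusted p = 2.77e-04). The log2 ratio of Cdkn2c to Cdkn2d was 0.94 ± 0.136 and 1.17 ± 0.138 (SD, n = 3; exact permutation p = 0.2), with overlapping groups. A difference between these paralogs was thus not shown.

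The INK4 locus itself was almost silent in the reads of both groups. Cdkn2b (ENSMUSG00000073802.5; chromosome 4, 89306299 to 89311039, minus strand), which encodes p15, had no count in any of the 6 libraries. A count of 0 allows a level of up to 0.0274 CPM over the 6 libraries (3 counts, counting error only). Cdkn2a (ENSMUSG00000044303.6; chromosome 4, 89274471 to 89294653, minus strand), which encodes p16 and the p53 activator ARF from overlapping reading frames, had 4 counts in GFP replicate 2, 2 counts in ChREBP-beta replicate 2 and none in the other 4 libraries. The neighbouring gene Mtap (chromosome 4, 89137122 to 89181081, plus strand), an enzyme of methionine salvage whose end lies 93.4 kb from Cdkn2a, had 239 ± 1.24 CPM in the control group and 233 ± 10.02 CPM in the other (SD, n = 3; edgeR adjusted p = 0.351), and was called lower with library size alone (0.0294). Dmrta1, on the other side, had no count, and Elavl2 had 23 and 13 counts over the groups. Counts of RNA cannot tell a silent gene from a deleted one.

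Btg1 (ENSMUSG00000036478.8; chromosome 10, 96617006 to 96622809, plus strand), which restrains division in quiescent cells, had the highest level of the 10 per kilobase of exon. This rank rests on the merged exon lengths used. Btg1 stood at 147, 144 and 146 CPM with GFP and at 157, 163 and 161 CPM with ChREBP-beta. The groups were narrow and did not overlap. The rise was 0.14 on the log2 scale (SE 0.033, edgeR adjusted p = 9.21e-04).

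Btg2 (ENSMUSG00000020423.6; chromosome 1, 134075170 to 134079120, minus strand) is an immediate early gene and p53 target. Its values were 22.3, 21.9 and 19.3 CPM in the GFP libraries and 10.7, 8.98 and 11.04 CPM in the ChREBP-beta libraries. Every ChREBP-beta library lay far below the lowest GFP library. The log2 fold change was -1.05 (SE 0.099, edgeR adjusted p = 2.02e-09), the smallest p of the 8 members, and its size lay at the 89.0th percentile of absolute log2 fold changes over all genes tested.

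Btg3 (ENSMUSG00000022863.15; chromosome 16, 78332637 to 78377192, minus strand), an antiproliferative relative that can bind E2f1, stood at 46.7, 46.2 and 39.9 CPM with GFP and at 37.2, 39.0 and 38.4 CPM with ChREBP-beta. The groups came close, since GFP replicate 3 was only just above the ChREBP-beta libraries. The log2 fold change was -0.21 (SE 0.063, edgeR adjusted p = 0.00527). Of its exon bases, 2575 lie inside Cxadr on the opposite strand, a virus receptor gene that stood at 4.19 ± 0.948 CPM with GFP and was lower, at 1.39 ± 0.159 CPM, with ChREBP-beta (SD, n = 3; adjusted p = 1.12e-05, edgeR). These bases lie within the whole span of Cxadr, and whether they meet its exons was not examined. Where they do, reads of Btg3 and Cxadr cannot be told apart without the strand setting.

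Ratios between Btg genes were set side by side in the same way. The log2 ratio of Btg2 to Btg1 was -2.79 ± 0.114 with GFP and -3.97 ± 0.180 with ChREBP-beta, and that of Btg3 to Btg1 was -1.72 ± 0.131 and -2.07 ± 0.011 (SD, n = 3; exact permutation p = 0.1 for each, adjusted p = 0.125). All libraries of the groups were separated in both ratios. The Btg genes summed to 44.7 to 47.7 RPKM with GFP and 43.0 to 44.0 RPKM with ChREBP-beta, and Btg2 made up 15.8% to 17.0% and 7.47% to 9.15% of that. Btg1 made up 58.4% to 62.0% and 69.1% to 70.4%.

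**Figure D4:**
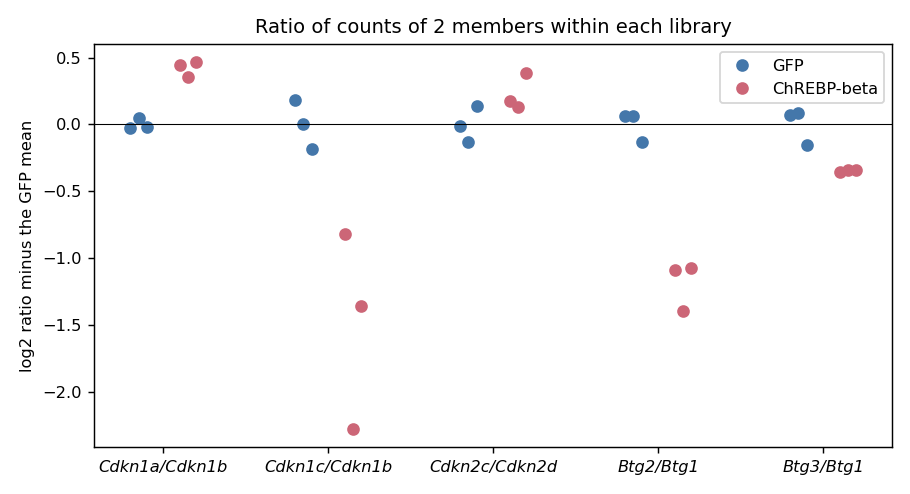
Log2 ratio of the counts of 2 members within a library, minus the mean of the GFP libraries (y axis), for 5 pairs (x axis) with 1 point per library. The 3 ChREBP-beta points lie above all GFP points for Cdkn1a/Cdkn1b, below them for Cdkn1c/Cdkn1b, Btg2/Btg1 and Btg3/Btg1, and overlap with them for Cdkn2c/Cdkn2d.

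Ordered by RPKM, the members had the same order in both groups: Btg1, Cdkn1a, Cdkn1b, Cdkn2c, Cdkn2d, Btg3, Btg2, Cdkn1c, Cdkn2a and Cdkn2b. Btg1 stood at 27.6 ± 0.301 RPKM with GFP and 30.4 ± 0.521 with ChREBP-beta (SD, n = 3). Cdkn1a and Cdkn1b did not differ beyond their spread with GFP, at 20.3 ± 0.350 and 20.3 ± 0.770 RPKM, and were apart with ChREBP-beta, at 23.3 ± 0.650 and 17.3 ± 0.381 RPKM. Cdkn2c followed at 16.8 ± 1.30 and 15.3 ± 0.755, Cdkn2d at 14.9 ± 0.267 and 11.6 ± 0.604, and Btg3 at 11.03 ± 0.947 and 9.51 ± 0.230 RPKM. Btg2 stood at 7.71 ± 0.582 and 3.74 ± 0.404, and Cdkn1c at 0.877 ± 0.134 and 0.289 ± 0.135 RPKM. Apart from Cdkn1a and Cdkn1b with GFP, and Cdkn2a and Cdkn2b in both groups, neighbours in this order did not overlap between their 3 libraries of a group. These levels use all annotated exons of a gene, so a gene of which only short isoforms are made is understated. For Btg3, 2575 of the 4014 merged exon bases lie inside Cxadr. Its place in the order and the shares of the Btg genes therefore depend on how many of these bases its transcripts hold.

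The closest relatives of the Btg genes outside the 10 are Tob1 and Tob2. Tob1 fell 1.48-fold, from 61.0, 68.1 and 66.2 CPM with GFP to 44.3, 45.2 and 41.8 CPM in the other group (edgeR adjusted p = 2.75e-09). Tob2 stood at 41.6 and 45.2 CPM (edgeR adjusted p = 0.0811) and was called higher without ChREBP-beta replicate 1 (0.0401), and Btg4, a gene of oocytes, had 1 count in all. Of the 13 genes of CCR4-NOT, poly(A) binding and Prmt1, a methyltransferase that binds Btg1 and Btg2, 6 were higher, 1 lower and 6 not called, with a median log2 fold change of 0.12 against -0.0040 over all genes tested. Cnot7, a deadenylase that Btg proteins bind, rose 1.18-fold and Pabpc1, the poly(A) binding protein, 1.26-fold, while Cnot8, the paralog of Cnot7, had a log2 fold change of -0.05 and was not called. Prmt1 was the member that fell, by 0.13 on the log2 scale, and was not called without GFP replicate 1 or without ChREBP-beta replicate 3 (edgeR adjusted p = 0.0660 and 0.0560).

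The kinases and cyclins that the inhibitors act on changed in both directions. Of 12 listed genes, 4 were higher, 5 lower and 3 not called, with a median log2 fold change of -0.06. Of all genes tested, 29.5% were higher and 29.3% lower, the shares to set beside each of the gene lists. The D cyclins went apart: Ccnd1 rose 2.54-fold from 292 ± 2.90 to 741 ± 17.3 CPM, while Ccnd2 fell 7.32-fold from 44.7 ± 0.851 to 6.11 ± 0.575 CPM and Ccnd3 fell 1.29-fold from 65.8 ± 0.320 to 51.2 ± 0.817 CPM (SD, n = 3; adjusted p = 1.91e-22, 1.55e-19 and 4.11e-07, edgeR). All 6 libraries held fractional counts at Ccnd1, at Ccnd3 and at the kinase gene Cdk4. Both INK4 targets fell, Cdk6 by 2.06-fold from 157 to 76.2 CPM and Cdk4 by 1.17-fold from 216 to 185 CPM (edgeR adjusted p = 1.93e-16 and 1.57e-06). Cdk2, the partner of cyclins E and A, stood at 50.8 and 52.6 CPM (edgeR adjusted p = 0.395). Ccne1 was 1.26-fold lower and Ccne2 1.15-fold higher.

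**Figure D5:**
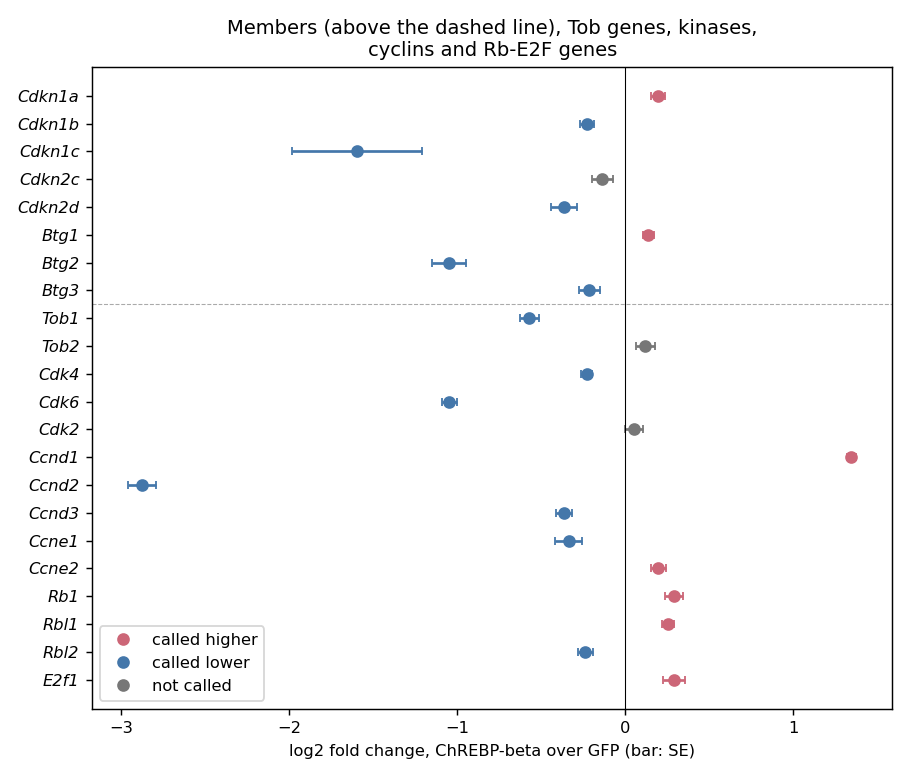
Log2 fold change (x axis, ChREBP-beta over GFP, bars are SE) of the 8 tested members above the dashed line and of Tob genes, kinases, cyclins, Rb family and E2f1 below it, coloured by the edgeR call. Ccnd2 at -2.87 and Ccnd1 at 1.34 lie farther from 0 than Btg2 at -1.05, and the other members except Cdkn1c lie within 0.4 of 0.

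Downstream of these kinases stand the retinoblastoma proteins, which restrain E2F factors until they are phosphorylated. Of 13 such genes, 6 were higher, 4 lower and 3 not called (median log2 fold change 0.12). Rb1 rose 1.22-fold, Rbl1 1.19-fold and E2f1 1.22-fold, and Rbl2, which acts in quiescent cells, was 1.18-fold lower. Fractional counts were found at Rbl2 in all 6 libraries. Among 20 proliferation genes, which share Cdk1 and Ccnb1 with the list of kinases and cyclins, 11 were higher, 3 lower and 6 not called (median 0.09). The log2 fold changes of these 20 ran from -0.25 to 1.48. Top2a rose 1.16-fold, Cdk1 had a log2 fold change of -0.04 and was not called, and Mki67 rose 1.06-fold but was not called with upper-quartile scaling or library size alone (edgeR adjusted p = 0.118 and 0.264).

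Cip/Kip proteins are removed by ubiquitin ligases. Of 13 genes of these ligases and their cofactors, 4 were higher, 3 lower and 6 not called (median log2 fold change -0.07). Their log2 fold changes ran from -0.41 to 0.28, and the genes given with values below are among those not called. One of the 4 higher genes was Pcna, a replication clamp and no ligase, which is also among the 20 proliferation genes. The substrate receptor Skp2, which marks p27 for breakdown, stood at 79.7 and 74.8 CPM (edgeR adjusted p = 0.0775), its partner Cks1b at 70.0 and 73.0 CPM (0.394), Rnf123, another ligase for p27, at 25.8 and 27.8 CPM (0.163) and Dtl, a receptor for p21, at 63.8 and 59.1 CPM (0.0522). Skp2 and Dtl were called lower with upper-quartile scaling (edgeR adjusted p = 0.0183 and 0.0140), with library size alone and among genes of at least 5 CPM, and Dtl also with limma-voom and without ChREBP-beta replicate 3. Rnf123 held fractional counts in all 6 libraries. The further genes Cdkn3 and Cdkn2aip share only part of their name with the inhibitors. Cdkn3, a phosphatase that acts on CDKs, fell 1.49-fold, and Cdkn2aip, a partner of ARF, stood at 26.0 and 23.9 CPM and was called lower only with library size alone (edgeR adjusted p = 0.0406).

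Genes of the p53 pathway, which induces Cdkn1a and Btg2, showed no common direction. Of 19 tested, 6 were higher, 4 lower and 9 not called, with a median log2 fold change of -0.01. Their log2 fold changes ran from -1.03 to 0.72. Trp53 itself rose 1.24-fold (edgeR adjusted p = 1.71e-07). Ccng1, a p53 target, stood at 190 and 199.97 CPM and was called higher only without GFP replicate 1 (edgeR adjusted p = 0.0207), and Gadd45a at 3.59 and 3.13 CPM was not called. Mdm2, target and inhibitor of p53, had a log2 fold change of 0.10 (edgeR adjusted p = 0.0497) and lost its call under 12 of 15 alternatives, among them leaving out any library but GFP replicate 3.

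Among 26 tested regulators known to act on these genes, 9 were higher, 7 lower and 10 not called (median log2 fold change 0.05). Myc, which represses Cdkn1a and Cdkn2b through Zbtb17, rose 2.12-fold from 48.5, 55.8 and 52.1 CPM to 110, 110 and 112 CPM (edgeR adjusted p = 4.03e-16), while Zbtb17 stood at 15.2 and 13.6 CPM and was not called. Klf4, an activator of Cdkn1a, rose 1.35-fold and Id1, which represses Cdkn2a, 1.19-fold. Of the other Id genes listed, Id3 was 2.15-fold lower and Id2 was not called. Foxo3, an activator of Cdkn1b, was 1.18-fold lower, and Foxo1 at 39.4 and 41.7 CPM was not called. Myod1, which raises Cdkn1a in differentiating myoblasts, fell 24.9-fold from 30.8 ± 1.21 to 1.23 ± 0.340 CPM (SD, n = 3; adjusted p = 1.93e-19, edgeR). Smad3, which carries TGF-beta signals to Cdkn2b, and Bmi1, a repressor of the INK4 locus, had log2 fold changes of 0.16 and 0.08 and lost their calls under 4 and 8 of 15 alternatives. These include leaving out GFP replicate 2 or ChREBP-beta replicate 1 for Smad3, and GFP replicate 1 or 2 or ChREBP-beta replicate 2 for Bmi1.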

How the data were processed

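The authors deposited a table of estimated counts per gene symbol, not normalized, with a column per library matched by the sample descriptions. The submitters' processing notes list TopHat2 2.0.0, Bowtie2 2.0.0.5 and fastp, and as a build the chicken assembly GRCg6a, although the symbols are mouse. Counting tool, mouse build and strand setting: not given in the sources used here. Of the deposited values, 7.74% were not whole (tolerance 1e-06).

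Rows of the 24 repeated symbols were summed, and the counts of all symbols were rounded to whole numbers. edgeR 4.0.16 (R 4.3.3) was run with filterByExpr defaults (minimum count 10, minimum total 15; 12166 genes), TMM, glmQLFit and glmQLFTest on the 2 groups, two-sided, with Benjamini-Hochberg adjustment over all genes tested and calls under 0.05. The SE is the log2 fold change over the square root of F. Simulated with 200 of the genes of this comparison changed, it called 67.3% at 1.25-fold and 100% at 4-fold (12049 genes passing), with 11 of 172 calls false. Far more genes were called in the data (58.7%), so these simulated shares need not hold for this comparison. Within groups, chi-square per degree of freedom between libraries was 2.15 to 3.93, so none was a copy. Symbols were matched to GENCODE M21 (GRCm38) for locations and exon lengths, and to RefSeq for promoters (GRCm38.p6). Named genes are the 10, Mlxipl and symbols picked from lists for their known role. Nap1l4, Tssc4, Cd81, Lep, Kcnq1, Pax7, Fabp4, Pcna, Cxadr, Alb, Id2 and Id3 were named after their values were seen. Members and lists were chosen with earlier results of these data known. Alternatives were 3 other scalings, 2 other filters, DESeq2 1.42.0, limma-voom (limma 3.58.1), a replicate block, counts rounded down and each library left out.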

Additional observations from a re-analysis of the deposited data

How the results depend on the processing

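Over all alternatives the 7 called members kept their direction and their call wherever they were tested, and Cdkn1c was not tested among genes of at least 5 CPM. With a library left out, the log2 fold change of Cdkn1c ran from -1.99 to -1.29 and that of Btg2 from -1.10 to -0.96, and the highest edgeR adjusted p of a called member was 0.0417, for Btg3. Cdkn2c, not called at first, was called under 5 of 15 alternatives, so 7 or 8 members were called in all. Calls over all genes ran from 6209 (at least 5 CPM) to 7383 (no filter). With library size alone 2989 genes were higher and 4166 lower, and the median of all genes moved by -0.05 on the log2 scale. Replicate numbers are shared between the groups, but same-numbered libraries did not deviate together (correlations -0.02, 0.0015 and -0.04), and with the number as a replicate block 7 members and 6902 genes were called. With a library left out, the log2 fold changes of genes that were not called crossed 0 for Cks1b (-0.0066 to 0.12), for Mtap (-0.064 to 0.0036) and for Tssc4 (-0.021 to 0.12), and that of Tssc4 was -0.0055 with library size alone. The causes were not tested. The member ratios kept their signs under every alternative run. Depth limits Cdkn1c, and Cdkn2a and Cdkn2b did not pass the filter on low counts.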
